A study of Mus musculus with 8 samples.

Results

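Oxidative phosphorylation genes code for the subunits of the respiratory chain, complexes I to IV, and of ATP synthase, complex V. They were taken from the deposited table by symbol: names starting with Nduf and a subunit letter and number, the 4 Sdh genes, names starting with Uqcr, Cox4 to Cox8 or Atp5, and the 13 protein genes of mitochondrial DNA. That gave 99 of 35976 listed genes, of which 86 lie in the nucleus and 13 in mitochondrial DNA. Complex I held 44 members (37 nuclear and 7 mitochondrial), complex II 4, complex III 10, complex IV 21 and complex V 20. The complex was read from the symbol prefix, so Ndufa4, which is now regarded as a complex IV subunit, stands here under complex I. The prefix also took in the pseudogenes Uqcrh-ps1 and Atp5c1-ps. By prefix alone Atp5s and Atp5sl stand under complex V, although RefSeq names them Dmac2l and Dmac2 and not as ATP synthase subunits.

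RNA was measured in whole mouse kidney at postnatal day 3 (poly(A)-selected RNA-seq, 8 libraries). Every animal group carried Slc12a3 Cre/+; the 4 control libraries were C1 +/+ and the 4 mutant libraries C1 YAP/+, with 2 female and 2 male libraries in each genotype. Cre was thus driven from Slc12a3, the NaCl cotransporter gene of the distal convoluted tubule, while the RNA came from all kidney cells, so fewer cells of a type and less RNA per cell cannot be told apart. What C1 stands for, the species of the YAP sequence and the number of animals behind a library are not stated in the labels. P-values therefore measure the spread between libraries, which may be technical.

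The respiratory chain passes electrons from NADH (complex I) and succinate (complex II) through ubiquinone, complex III and cytochrome c to oxygen at complex IV, and ATP synthase uses the proton gradient that complexes I, III and IV build. Complexes I, III, IV and V mix subunits from both genomes, whereas every subunit of complex II is nuclear. In the kidney the proximal tubule, the thick ascending limb and the distal convoluted tubule are dense in mitochondria, because their salt and solute transport runs on ATP.

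The libraries of replicate 1 held 78.2 to 87.1 and those of replicate 2 held 22.8 to 25.2 (in units of 1e6 reads), so replicate number is also a depth batch with 1 library of each sex and genotype. Levels are given as scaled RPKM, the deposited reads per kilobase of gene per 1e6 reads divided by a library factor (0.975 to 1.02). Testing needed 0.2 reads per 1e6 in 2 or more libraries and a sum of 15 reads or more. Changes are log2(scaled RPKM + 0.1) of mutants minus controls from limma with sex as a covariate, and a gene "fell" or "rose" if its Benjamini-Hochberg adjusted p over all 18156 tested genes was under 0.05. Adipose markers other than Fabp4 set 3 libraries apart: the sum of the list without Fabp4 (Ucp1, Cidea, Elovl3, Adipoq, Plin1, Lep and Cfd) was 12.5 in male control 1, 15.5 in female mutant 2 and 17.6 in male mutant 2, against 0.155 to 2.40 in the other 5 libraries. With Fabp4 the sums were 534, 262 and 251 in these 3 libraries and 245 to 405 in the other 5. The full list thus did not set the 2 mutant libraries apart. Where leaving out these libraries ended a named call or moved its change by over 1.5 times, the value without them is given.

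Oxidative phosphorylation genes were lower in mutant kidneys in every complex and in both genomes. Of 92 members tested 53 fell, or 57.6%, against 13% of all tested genes, and 0 rose, against 13.2%. No member rose by limma-voom or at an unadjusted p under 0.05 either, whereas 57 fell by limma-voom and 70 were lower at an unadjusted p under 0.05. The median log2 change was -0.46, a mutant level of 0.727 of control, beside 0.01 over all genes. The change was negative in 89 members and positive in 3: Cox6b2, Cox8b and Atp5s (Dmac2l in RefSeq). These 3 were named after their values were seen, and none of them passed. All 4 mutant libraries lay below all 4 control libraries in 57 members, 62.0% of those tested, against 14.8% of all genes.

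The 7 members not tested had too few reads. Cox8c had 0 reads in every library. Cox6a2, Cox7b2, Atp5c1-ps, ATP8, ND3 and ND4L had 4 to 39 reads over all 8 libraries.

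Summed over the 86 nuclear members, scaled RPKM was 34155 and 27952 in the female controls, 39634 and 30773 in the male controls, 25261 and 23903 in the female mutants and 24140 and 22157 in the male mutants (replicate 1 before replicate 2 in each pair). Over the 13 mitochondrial members the sums were 19957, 18447, 14225 and 14271 in the controls and 11042, 9762, 11127 and 9526 in the mutants, in the same order. Every control sum exceeded every mutant sum in both genomes. The mutant mean was 72.0% of the control mean for the nuclear members and 62.0% for the mitochondrial members.

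**Figure D1:**
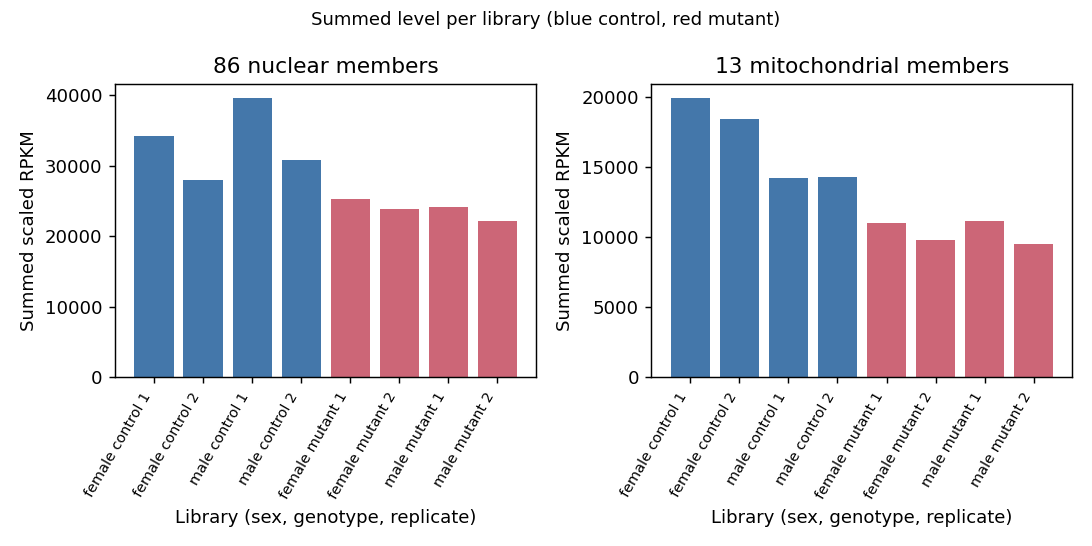
Summed scaled RPKM of the nuclear (left) and mitochondrial (right) members in each of the 8 libraries, with controls in blue and mutants in red. The 4 mutant bars lie below the 4 control bars in both panels, and the control bars vary more among themselves than the mutant bars.

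Library depth and the 3 libraries with adipose RNA moved the number of calls. Within the deep batch 46 members fell (against 9.68% of all genes) with a median of -0.57, and within the shallow batch 33 fell (against 9.48%) with a median of -0.36. With replicate number added to the model of all 8 libraries 71 fell, all 53 among them, when 2722 of 18156 genes fell. Without the 3 libraries, which leaves 3 controls and 2 mutants, 30 members fell with a median of -0.32, 29 of them among the 53, against 8.85% of all genes. The mutants left were both deep, while female control 2 and male control 2 among the controls left were shallow. Genotype and depth were thus partly mixed in that fit. With the depth batch also in that fit, 24 members fell (against 5.40%) and the median was -0.50. The part of library composition in these counts was not tested.

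**Figure D2:**
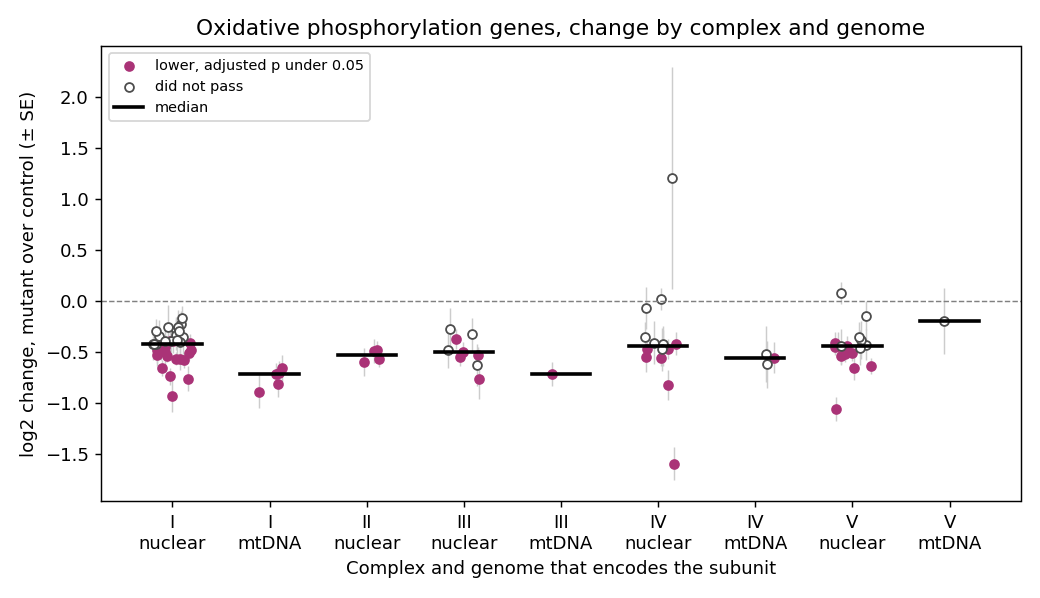
Change of each tested member (log2, mutant over control, with its standard error) by complex and by the genome that encodes it. Filled points fell, open points did not pass, and black bars are medians. Nearly all points lie below 0, and the open point far above 0 is Cox8b.

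Complex I oxidises NADH, and 25 of its 42 tested members fell (median -0.44). Beside this and every later count from the fit of all 8 libraries, 13% of all tested genes fell and 13.2% rose. The 7 nuclear core subunits carry the flavin and iron-sulfur clusters that hand electrons to ubiquinone, and 6 of them fell (median -0.50). Among the 30 accessory subunits, which surround and stabilise the core, 14 fell (median -0.41). Whether the core and accessory subunits differ was not tested.

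Ndufs1 (chr1:63143592-63176822 in GRCm38.p6, as for all nuclear positions here), the largest iron-sulfur subunit, stood at 99.1, 85.5, 103 and 94.3 scaled RPKM in female control 1 and 2 and male control 1 and 2, and at 61.2, 61.7, 60.5 and 58.3 in the mutants in the same order. The mutant values were tight and far from the control range. The log2 change of -0.65 ± 0.08 (SE) had an adjusted p of 0.000431 (limma). Ndufv1, which holds the flavin, changed by -0.43 and Ndufs7 and Ndufs8, which bind the last iron-sulfur clusters before ubiquinone, by -0.53 and -0.56. Ndufs3, of the same ubiquinone module, changed by -0.50 and Ndufv2 by -0.45. These falls passed in the fit of all 8 libraries.

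Some of these calls hung on single libraries. Ndufs3 no longer passed without female control 1, female mutant 2, male mutant 1 or male mutant 2 (adjusted p 0.0916, 0.0904, 0.0791 and 0.0889 by limma), and Ndufv2 without male mutant 1 (0.0525). With the 3 libraries with adipose RNA left out, Ndufs3 changed by -0.27 (adjusted p = 0.255), and Ndufv2, Ndufv1 and Ndufs8 changed by -0.36, -0.38 and -0.45 and also missed the threshold (0.0897, 0.0581 and 0.0533). Ndufs7 passed there.

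Among accessory subunits, Ndufb10 (chr17:24722060-24724423), a membrane-arm subunit, fell from 338, 309, 335 and 309 to 211, 193, 177 and 194 scaled RPKM in the same library order. Ndufv3 (chr17:31520115-31531326), beside the flavin subunit, fell from 76.0, 76.6, 73.0 and 77.0 to 51.6, 50.5, 48.8 and 53.6. Ndufc1 (chr3:51405479-51408955) fell from 304, 244, 342 and 270 to 178, 172, 179 and 154. The genotypes did not overlap in any of the 3 genes, and the log2 changes were -0.74, -0.56 and -0.76 (adjusted p 0.000312, 0.000359 and 0.00183 by limma). Ndufb10 and Ndufv3 varied little within a genotype, and Ndufc1 was higher in the deep than in the shallow library of every pair.

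Complex II, succinate dehydrogenase, also works in the tricarboxylic acid cycle, and all 4 of its genes fell (median -0.53). Sdha (chr13:74322255-74350240), the flavoprotein, was 163, 186, 173 and 191 scaled RPKM in the controls and 123, 117, 116 and 126 in the mutants, in the order female 1, female 2, male 1, male 2. Its log2 change was -0.56 ± 0.08 (SE; adjusted p = 0.00106 by limma), and its deep controls were below its shallow ones. Sdhb, the iron-sulfur subunit, changed by -0.59, and the membrane anchors Sdhc and Sdhd by -0.49 and -0.48. The fall of Sdhc did not pass without female control 1 (adjusted p = 0.0539 by limma) or male mutant 2 (0.0516). Without the 3 libraries with adipose RNA 1 of the 4 genes, Sdha, passed. Sdhb, Sdhc and Sdhd changed there by -0.46, -0.33 and -0.41 (adjusted p 0.0745, 0.150 and 0.0629 by limma). With the depth batch also in that fit Sdhb passed (-0.67, 0.0368). Sdha, Sdhc and Sdhd changed by -0.43, -0.54 and -0.49 and did not pass (0.0782, 0.0558 and 0.0853).

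Complex III moves electrons from ubiquinol to cytochrome c, and 6 of its 10 members fell (median -0.51). Uqcrc1 (chr9:108936648-108949641), a core protein, was 325, 304, 347 and 323 scaled RPKM in controls and 239, 213, 222 and 227 in mutants. Uqcrfs1, the Rieske iron-sulfur protein (chr13:30540312-30545316), was 253, 214, 266 and 236 in controls and 169, 161, 162 and 167 in mutants. Both sets of values were separated by genotype, with log2 changes of -0.53 and -0.55 (adjusted p 0.00155 and 0.00188 by limma). Without the 3 libraries with adipose RNA and with the depth batch in the fit, Uqcrc1 changed by -0.49 and did not pass (0.0760). Uqcrb, which lines the ubiquinone pocket, changed by -0.50 and also passed.

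The small subunit Uqcr11 (chr10:80402997-80406821) showed the widest spread of the called complex III genes: 760, 517, 936 and 598 scaled RPKM in controls and 455, 384, 440 and 341 in mutants. Its log2 change was -0.77 ± 0.19 (SE; adjusted p = 0.0183 by limma), and it missed the threshold without female control 1 (0.0558), female mutant 2 (0.0526) or male mutant 2 (0.0530). It changed by -0.45 (0.144) without the 3 libraries with adipose RNA, and by -0.80 (0.0240) with the depth batch also in that fit. Uqcrq, another small subunit, had non-overlapping genotypes with a change of -0.63 but an adjusted p of 0.0582. It passed in 8 alternatives, among them limma-voom (0.0420), replicate number added to the model (0.00656) and each depth batch alone (0.0204 and 0.0275), but was -0.27 (0.326) without the 3 libraries with adipose RNA. With the depth batch also in that fit Uqcrq changed by -0.61 (0.0348). In both genes the deep control libraries were the highest.

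Gene length went with the spread of the nuclear members. Of the 37 tested nuclear members whose gene length in the table was under 700 bases, 15 fell, with a median standard error of 0.149. Of the 45 longer members 31 fell, with a median standard error of 0.110. In the short members replicate 1 exceeded replicate 2 by a median log2 of 0.37 in female controls and 0.51 in male controls, but by 0.03 and 0.16 in the mutants. For the longer members these differences were 0.25 and 0.26 in controls and 0.08 and 0.03 in mutants. The part of these library differences in the calls was not tested.

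Complex IV, cytochrome c oxidase, reduces oxygen, and 8 of its 18 tested members fell (median -0.47). Without female control 1 or male mutant 2, 5 fell (against 10.5% and 11.0% of all genes). Cox5b (chr1:36691487-36693388), a zinc-binding subunit, was 632, 580, 658 and 614 scaled RPKM in controls and 426, 433, 411 and 417 in mutants, a log2 change of -0.56 ± 0.08 (SE; adjusted p = 0.00124 by limma). The mutant values sat within a narrow band well below the controls. Cox6a1 and Cox6b1 both changed by -0.47 and passed with all libraries, but not in either depth batch alone (adjusted p 0.0667 and 0.110 for Cox6a1, 0.0646 and 0.0885 for Cox6b1) nor without the 3 libraries with adipose RNA (0.0995 and 0.0862). Cox8a changed by -0.55 and passed with all libraries, but not without female control 1, female mutant 2, male mutant 1 or male mutant 2 (adjusted p 0.0772, 0.0735, 0.0641 and 0.0784 by limma), and without the 3 libraries with adipose RNA it was -0.31 (0.228). Cox4i1, the largest nuclear subunit, Cox7a2 and Cox7b changed by -0.35, -0.42 and -0.47 without passing (adjusted p 0.115, 0.0513 and 0.147). All 3 passed with replicate number added to the model (0.0287, 0.0186 and 0.0375), where 14 complex IV members fell, and Cox7a2 and Cox7b also without female control 2 (0.0166 and 0.0353). They changed by -0.12, -0.27 and -0.16 without the 3 libraries with adipose RNA and did not pass.

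Complex V makes ATP, and 10 of its 18 tested members fell (median -0.44). Atp5o (chr16:91925223-91931630), which joins the stalk to the catalytic head, was 619, 651, 614 and 641 scaled RPKM in controls and 434, 462, 421 and 448 in mutants, a log2 change of -0.52 ± 0.08 (SE; adjusted p = 0.00152 by limma). Its deep and shallow libraries were close together within either genotype. Atp5o did not pass in the deep batch alone (-0.53, adjusted p = 0.0558 by limma). Without the 3 libraries with adipose RNA and with the depth batch in the fit, Atp5o changed by -0.52 and missed the threshold (0.0628). Atp5k (chr5:108433246-108434399), a small membrane subunit that helps ATP synthase pair up, was 1060, 914, 1191 and 1041 in controls and 666, 740, 686 and 575 in mutants, a change of -0.66 (adjusted p = 0.00412). Every mutant library was below every control library in both genes.

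The proton-carrying c ring of ATP synthase is encoded by Atp5g1, Atp5g2 and Atp5g3, which yield the same mature protein behind different import sequences. Atp5g1 (chr11:96072793-96075694) was 401, 307, 389 and 343 scaled RPKM in controls and 190, 161, 187 and 153 in mutants. It fell 2.08-fold (log2 change -1.06 ± 0.12, SE; adjusted p = 0.000328 by limma), with changes of -1.07 at replicate 1 and -1.04 at replicate 2. Atp5g3 (chr2:73908447-73912464), the most abundant of the 3, was 1234, 1186, 1241 and 1259 in controls and 805, 796, 768 and 802 in mutants, a change of -0.63 (adjusted p = 0.000617). Atp5g2 (chr15:102662868-102671047), named after its values were seen, had 179 ± 31.7 in controls against 161 ± 18.6 in mutants (SD, n = 4 each), a change of -0.14 that did not pass (limma, adjusted p = 0.525). The 3 genes thus changed by unequal amounts. Atp5g1 made up 20.3 ± 1.44% of the summed c-subunit RPKM in controls and 15.3 ± 1.25% in mutants, Atp5g2 10.1 ± 1.34% and 14.3 ± 1.28%, and Atp5g3 69.6 ± 2.67% and 70.4 ± 2.51% (SD, n = 4 each). The shares of Atp5g1 and Atp5g2 did not overlap between genotypes, while those of Atp5g3 did.

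The promoters of the c-subunit genes, and of Cox7a1, the member with the largest fall, are printed because their changes differed. They run from 250 bases before to 50 bases after the start site in RefSeq (GRCm38.p6), each on its gene's strand. Capitals mark matches, on either strand, to GCGC and TGCGC separated by any base (NRF1) or to TCAAGGTCA (estrogen-related receptors, ERR), motifs of factors that regulate many respiratory chain genes.
Atp5g1 promoter, chr11:96075582-96075881, minus strand: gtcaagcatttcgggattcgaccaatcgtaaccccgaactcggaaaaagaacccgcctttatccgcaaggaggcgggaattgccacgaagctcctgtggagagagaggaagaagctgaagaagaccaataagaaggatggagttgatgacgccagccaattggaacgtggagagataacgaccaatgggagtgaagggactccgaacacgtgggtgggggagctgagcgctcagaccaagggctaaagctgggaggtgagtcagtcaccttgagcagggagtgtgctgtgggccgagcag
Atp5g2 promoter, chr15:102670998-102671297, minus strand: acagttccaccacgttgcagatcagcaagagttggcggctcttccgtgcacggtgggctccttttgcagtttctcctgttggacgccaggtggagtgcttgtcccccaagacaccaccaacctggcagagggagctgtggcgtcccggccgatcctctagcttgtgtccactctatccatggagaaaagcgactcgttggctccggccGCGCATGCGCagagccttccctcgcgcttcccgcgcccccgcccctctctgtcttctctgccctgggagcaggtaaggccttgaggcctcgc
Atp5g3 promoter, chr2:73911277-73911576, minus strand: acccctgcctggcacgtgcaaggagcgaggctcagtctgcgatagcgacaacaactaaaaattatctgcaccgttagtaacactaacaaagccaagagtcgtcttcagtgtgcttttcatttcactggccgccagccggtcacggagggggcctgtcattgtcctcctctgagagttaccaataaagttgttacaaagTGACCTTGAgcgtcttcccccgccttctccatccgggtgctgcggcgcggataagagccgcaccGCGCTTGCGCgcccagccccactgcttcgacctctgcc
Cox7a1 promoter, chr7:30183921-30184220, plus strand: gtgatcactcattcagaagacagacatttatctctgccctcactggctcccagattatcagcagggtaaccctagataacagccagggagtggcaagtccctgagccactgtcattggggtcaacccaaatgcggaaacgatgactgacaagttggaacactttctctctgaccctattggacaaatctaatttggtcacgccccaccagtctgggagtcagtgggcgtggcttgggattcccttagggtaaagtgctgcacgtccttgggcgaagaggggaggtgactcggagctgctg
Atp5g2 and Atp5g3 each held an NRF1 match and Atp5g3 an ERR match. Atp5g1 and Cox7a1, which fell more, held neither string in this window, which says nothing about the factors themselves.

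A promoter was found for 69 of the 86 nuclear members. The NRF1 string occurred in 17 of them (24.6%, against 5.19% of 27025 genes with a promoter) and the ETS string CCGGAAG in 16 (23.2% against 9.93%). The YY1 string AAGATGGCG occurred in 8 (11.6% against 1.64%), the ERR string in 2, Atp5g3 and Sdhd (2.90% against 0.466%), and the TEAD string GGAATG in 7 (10.1% against 16.6%). All 5 strings were searched on both strands, and a promoter could hold several. Of the members with an NRF1 match 11 of 17 fell (median -0.47), with an ETS match 12 of 16 (-0.48), with a YY1 match 5 of 8 (-0.45) and with a TEAD match 5 of 7 (-0.45). These medians lie close to the -0.45 of all nuclear members. A string match is a description and not a binding site.

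Several complex IV subunits, and Ndufa4, have alternative isoforms: Cox7a1, Cox8b and Cox6a2 are known from heart and skeletal muscle, Cox8b also from brown fat, Cox6b2 from testis, Cox4i2 from lung, and Ndufa4l2 from cells low in oxygen. Cox7a1 (chr7:30184171-30186030) had the lowest log2 change of all members. It was 31.1, 25.8, 41.5 and 27.8 scaled RPKM in controls and 10.4, 12.2, 9.74 and 8.79 in mutants, in the order female 1, female 2, male 1, male 2. It fell 3.02-fold, with a 95% interval of the mutant level of 0.256 to 0.429 of control (log2 change -1.59 ± 0.16, SE; adjusted p = 0.000184 by limma), and passed within females and within males and in each depth batch. Without the 3 libraries with adipose RNA the change was -1.46.

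Ndufa4l2 (chr10:127509274-127517154) was 25.7, 21.7, 29.0 and 22.2 in controls and 17.5, 12.3, 12.3 and 10.3 in mutants. Cox4i2 (chr2:152753916-152765039) was 4.16, 2.98, 3.98 and 3.32 in controls and 2.40, 1.79, 1.76 and 2.06 in mutants. Both were separated by genotype and fell, with log2 changes of -0.92 and -0.82 (adjusted p 0.00326 and 0.00365 by limma). Ndufa4l2 changed by -0.61 without the 3 libraries with adipose RNA and still passed. With the depth batch also in that fit Ndufa4l2 changed by -0.68 and Cox4i2 by -0.91, and both missed the threshold (adjusted p 0.0960 and 0.0563 by limma). Cox6b2 was 28.4, 25.4, 28.3 and 21.9 in controls and 27.9, 27.0, 28.5 and 22.0 in mutants. Its genotypes overlapped fully, with a change of 0.02 and a 95% interval of the fold of 0.850 to 1.21. Cox6a2, too low to be tested, was 0.191 to 0.292 in controls and 0.0351 to 0.0643 in mutants.

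Cox8b followed the adipose markers other than Fabp4 and not genotype. It was 8.66 in male control 1, 8.34 in female mutant 2 and 11.0 in male mutant 2, and 0.462 to 1.27 in the other 5 libraries. Ucp1 was high in the same 3 libraries (2.83, 1.72 and 2.50 against 0.0471 to 0.690), as was Adipoq (4.02, 5.97 and 5.12 against 0.0105 to 0.522). The log2 change of Cox8b was 1.20 with a 95% interval of the fold of 0.393 to 13.5. Within the deep batch it was -1.04, and within the shallow batch 3.45, where it passed as the single member that rose.

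As a share of an isoform and its widely expressed counterpart, Cox7a1 fell from 5.64 ± 0.288% to 2.58 ± 0.274% of the sum with Cox7a2 (SD over 4 libraries; p = 0.0286 by a two-sided exact permutation test). Ndufa4l2 fell from 2.33 ± 0.207% to 1.58 ± 0.291% of the sum with Ndufa4, and Cox4i2 from 0.248 ± 0.0250% to 0.176 ± 0.0167% of the sum with Cox4i1 (the same exact test, p = 0.0286 for each). Cox6b2 rose as a share, from 2.89 ± 0.265% to 3.99 ± 0.298% of the sum with Cox6b1 (exact p = 0.0286). Cox6b1 itself changed by -0.47 and Cox6b2 by 0.02. Cox8b moved from 0.185 ± 0.244% to 0.662 ± 0.659% of the sum with Cox8a (exact p = 0.2). For the 4 pairs at 0.0286, the smallest value that 70 splits allow, the adjusted p over the 5 pairs was 0.0357, and the genotypes did not overlap.

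**Figure D3:**
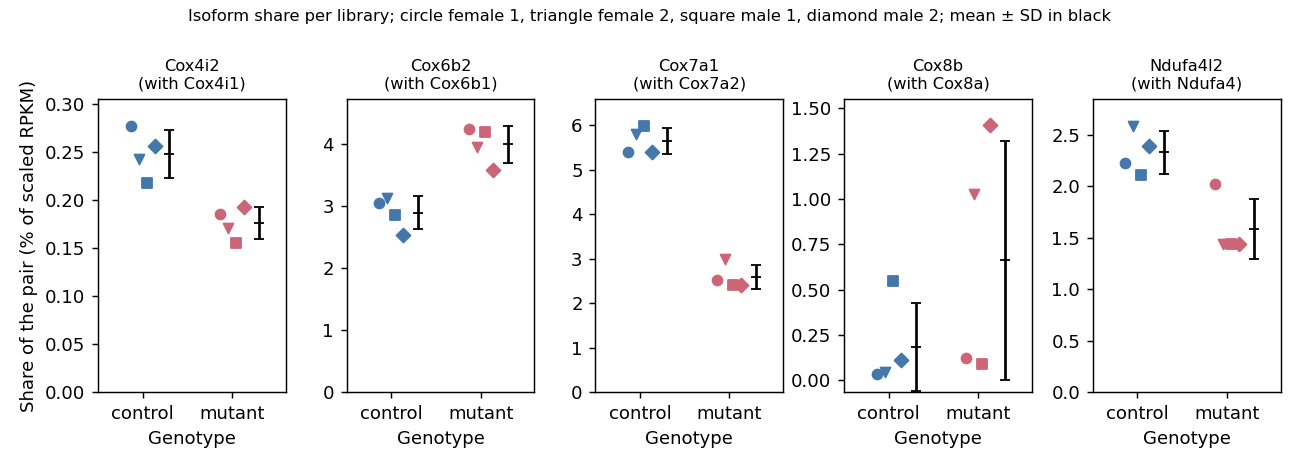
Share of each isoform in the sum with its counterpart (percent of scaled RPKM) in every library, with blue controls, red mutants and mean ± SD in black. Cox4i2, Cox7a1 and Ndufa4l2 had lower shares in all mutants, Cox6b2 a higher share, and Cox8b was high in 1 control and 2 mutant libraries.

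Of the 13 mitochondrial genes 7 carried nearly all reads, 7056963 over the 8 libraries, and the other 6 carried 481. The 6 low genes, COX2, ATP8, ATP6, COX3, ND3 and ND4L, form an unbroken block of the mitochondrial genome and never exceeded 1 scaled RPKM. Their abundant neighbours COX1 and ND4 reached 2793 to 5913 and 294 to 760. Mitochondrial mRNAs are cut from common precursors. How the authors treated reads that map to several places is not stated.

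Windows of 50 bases were taken from each gene and looked up in GENCODE nuclear transcripts of GRCm38. For COX2 100% of windows occurred there, for COX3 99.9%, for ATP6 99.5%, for ND4L 98.8% and for ND3 98.0%. ND4 had 62.2% and COX1 51.1%, ND2 8.19%, ND5 7.61%, and ND1, ND6 and CYTB 0.0%. ATP8 also had 0.0% although its level was low. Only annotated transcripts were searched, so a nuclear copy of ATP8 outside them would have been missed. Most of the shared windows lay in annotated pseudogenes on chromosome 1. The stretches below show bases 101 to 150 of COX3 and of ATP6 with their nuclear copies, which are the same letter for letter, and of CYTB, for which no copy was found.
COX3, chrM:8707-8756, plus strand: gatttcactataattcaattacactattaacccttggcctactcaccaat
Gm28437, chr1:24613822-24613871, minus strand: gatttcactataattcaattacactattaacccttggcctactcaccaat
ATP6, chrM:8027-8076, plus strand: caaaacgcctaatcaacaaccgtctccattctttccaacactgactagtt
Gm10925, chr1:24614502-24614551, minus strand: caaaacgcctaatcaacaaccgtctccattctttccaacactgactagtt
CYTB, chrM:14245-14294, plus strand: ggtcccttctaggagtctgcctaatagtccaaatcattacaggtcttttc
The values of the 6 low genes were therefore not read as their expression, and whether shared sequence set them was not tested. COX2 was 0.217 to 0.736, ATP6 0.123 to 0.567 and COX3 0.324 to 0.921 over all libraries; these 3 were tested and did not pass (log2 changes -0.52, -0.20 and -0.62). COX2 passed without male control 2 (adjusted p = 0.0318 by limma) and COX3 without female control 2 (0.0190), and both passed in the deep batch (0.0359 and 0.0416), COX3 also with replicate number added to the model (0.0130).

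**Figure D4:**
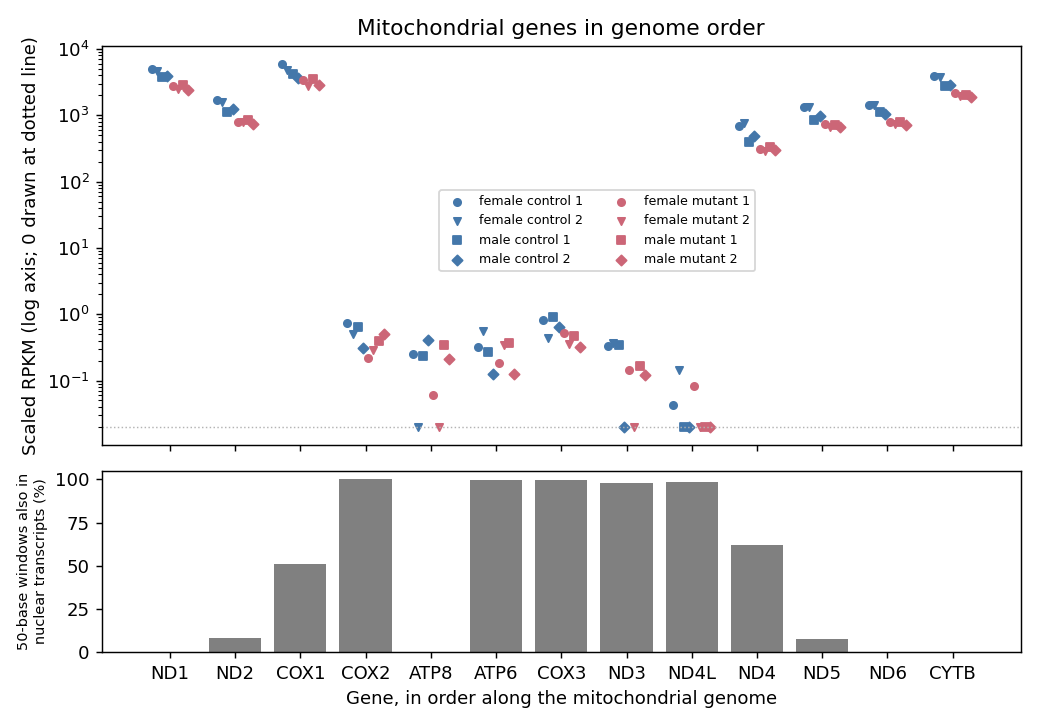
Scaled RPKM of the 13 mitochondrial genes in each library (top, log axis, values of 0 drawn on the dotted line) and the share of 50-base windows also found in nuclear transcripts (bottom, percent), in genome order. The block from COX2 to ND4L lies below 1, and mutants lie below controls in the 7 abundant genes.

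The 7 abundant mitochondrial genes all fell and all separated the genotypes. ND1 (chrM:2751-3707), a complex I subunit at the ubiquinone channel, was 4989, 4647, 3833 and 3906 scaled RPKM in controls and 2772, 2529, 2897 and 2403 in mutants. CYTB (chrM:14145-15288), the cytochrome of complex III, was 3919, 3781, 2799 and 2897 in controls and 2203, 1944, 2052 and 1889 in mutants. Female controls were above male controls in both genes, while mutants of both sexes were close together.

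COX1 (chrM:5328-6872), which holds the oxygen site of complex IV, was 5913, 4865, 4132 and 3707 in controls and 3440, 2793, 3497 and 2815 in mutants. ND4 (chrM:10167-11544), a proton-pumping subunit, was 698, 760, 399 and 494 in controls and 313, 294, 328 and 298 in mutants. ND6 (chrM:13552-14070), the member on the other strand of mitochondrial DNA, was 1426, 1440, 1104 and 1034 in controls and 791, 749, 780 and 703 in mutants. The lowest control library was male in each of these genes, and the margin over the highest mutant was narrowest for COX1.

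The log2 changes were -0.88 for ND4, -0.82 for ND2, -0.71 for CYTB, ND6 and ND1, -0.66 for ND5 and -0.55 for COX1, with adjusted p from 0.0014 (ND6) to 0.0280 (COX1) by limma. ND6 had nearly the same change as its neighbours ND5 and CYTB, and since the strand setting of the counts is not given, its reads cannot be told apart from RNA of the opposite strand. Without the 3 libraries with adipose RNA 6 of the 7 still passed, while COX1 changed by -0.40 and did not (adjusted p = 0.213 by limma). With the depth batch also in that fit 2 of the 7 passed, and COX1 was -0.68 (0.0946). The fall of COX1 also missed the threshold without female control 1 (adjusted p = 0.0822), female mutant 1 (0.0609), female mutant 2 (0.0856) or male mutant 2 (0.0739).

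The genomes differed in how the sexes and batches contributed, as a description of 2 libraries a group. In females 24 members fell, against 5.71% of all genes, with a median of -0.32 for nuclear members and -0.90 for the 7 abundant mitochondrial genes. In males 36 fell, against 7.4% of all genes, with medians of -0.58 and -0.53. No member rose in either sex by limma, by limma-voom or at an unadjusted p under 0.05, against 6.01% of all genes in females and 7.85% in males. Both counts hung on single libraries: that of females was 6 without female control 1 (against 3.14% of all genes), 9 without female control 2 (3.11%) or female mutant 1 (3.46%), 3 without female mutant 2 (2.30%), 15 without male mutant 1 (5.10%) and 13 without male mutant 2 (5.01%). That of males was 17 without male control 1 (4.53%), 8 without male mutant 1 (4.21%) and 5 without male mutant 2 (3.58%). At 3 and 5 of 92 members the shares were near those of all genes. With all libraries, all 7 abundant mitochondrial genes passed in females and 3 of them, ND2, ND6 and CYTB, in males. The difference of the genotype effect between the sexes was called for 0 members and 0% of all genes by limma, for 0 by limma-voom, and for 3 at an unadjusted p under 0.05. Mitochondrial members made up 2.48% and 2.35% of listed reads in female controls, 1.72% and 1.78% in male controls, and 1.20% to 1.39% in mutants. Reads of mitochondrial members per read of nuclear members were 0.80 and 0.866 in female controls, 0.494 and 0.609 in male controls and 0.558 to 0.633 in mutants. The mutants of both sexes thus lay in the range of the male controls or just above it, and below the female controls. Of the 7 abundant mitochondrial genes 1, ND6, passed in the deep batch and all 7 in the shallow batch, with medians over the 7 of -0.65 and -0.79.

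Genes that serve the same pathway were lower as well. Of 19 tested mobile carriers, ubiquinone synthesis genes and other chain components 12 fell (median -0.38), and 0 rose, also by limma-voom and at an unadjusted p under 0.05. Coq9, which binds lipid in ubiquinone synthesis, was 78.6, 78.5, 88.3 and 80.4 scaled RPKM in controls and 46.7, 43.4, 42.5 and 42.5 in mutants (log2 change -0.89, adjusted p = 5.56e-05 by limma). Cyc1, cytochrome c1, a complex III subunit that the symbol rule left out of the members, changed by -0.60. Of 18 tricarboxylic acid cycle genes 14 fell (median -0.40), among them Mdh2, malate dehydrogenase, which changed by -0.51. Mdh2 missed the threshold in the deep batch (adjusted p = 0.0600 by limma). Without the 3 libraries with adipose RNA and with the depth batch in the fit, Mdh2 changed by -0.50 and did not pass (0.0637).

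Smaller shares fell among the genes that build the complexes and read mitochondrial DNA, a difference that was not tested. Of 48 assembly factors 11 fell (median -0.19), led by Ecsit, a complex I assembly factor, which went from 26.3 ± 1.14 to 17.3 ± 0.426 (SD, n = 4; log2 change -0.60, adjusted p = 0.000219 by limma). Of 77 mitochondrial ribosomal protein genes 11 fell and 1, Mrps18b, rose (median -0.08, Mrps18b 0.36), a share that fell close to the 13% of all genes. Mrps18b did not pass in either depth batch alone (adjusted p 0.0839 and 0.0544 by limma). Without the 3 libraries with adipose RNA and with the depth batch in the fit, Mrps18b changed by 0.26 and did not pass (0.234). Of 25 genes that copy, transcribe and process mitochondrial DNA and RNA 0 fell and 0 rose by limma (median -0.04); limma-voom called 0, and at an unadjusted p under 0.05 there were 2 lower and 1 higher. Polg, the mitochondrial DNA polymerase, had 8.78 ± 0.784 in controls against 10.1 ± 0.429 in mutants (SD, n = 4; limma, adjusted p = 0.107). Lrpprc, which stabilises mitochondrial mRNA, changed by -0.33 (adjusted p = 0.0795) but passed without male control 1 (0.0154), in the shallow batch (0.0195) and with replicate number added to the model (0.0411).

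Of 16 regulators of mitochondrial biogenesis 7 fell, against 13% of all tested genes. The 2 that rose were a share near the 13.2% of all tested genes. Ppargc1a, the coactivator PGC-1alpha, was 2.32, 2.81, 2.35 and 2.82 scaled RPKM in controls and 1.79, 1.30, 1.29 and 1.88 in mutants (log2 change -0.70, adjusted p = 0.0102 by limma). The estrogen-related receptors, nuclear receptors that work with it, also fell: Esrra by a log2 of -0.64, Esrrb by -1.26 and Esrrg by -0.65. Ppargc1a missed the threshold in the deep batch (adjusted p = 0.0551 by limma). Without the 3 libraries with adipose RNA and with the depth batch in the fit, Ppargc1a, Esrra and Esrrg changed by -0.47, -0.67 and -0.53. They did not pass there (0.232, 0.103 and 0.0696), while Esrrb passed in every alternative. Ppara, the fatty acid receptor, changed by -0.96, the deacetylase Sirt3 by -0.68 (-0.49 and an adjusted p of 0.0779 without the 3 libraries with adipose RNA) and Hnf4a, a proximal tubule transcription factor that is also in that marker list, by -0.58. The 2 that rose were Myc, from 8.01 ± 1.13 to 21.0 ± 2.51 (SD, n = 4; log2 change 1.38, adjusted p = 3.87e-05 by limma), and the coactivator Pprc1 (0.50, or 0.43 with an adjusted p of 0.0551 without the 3 libraries). Of 15 hypoxia response genes 4 fell, among them Egln3 (-0.90), and 2 rose, Slc2a1 (2.49), the glucose transporter GLUT1, and Adm (0.85). The share of these genes that rose was also near the 13.2% of all tested genes. Over these 7 related lists together 59 genes fell and 5 rose (median -0.14), where 13% of all tested genes fell and 13.2% rose.

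**Figure D5:**
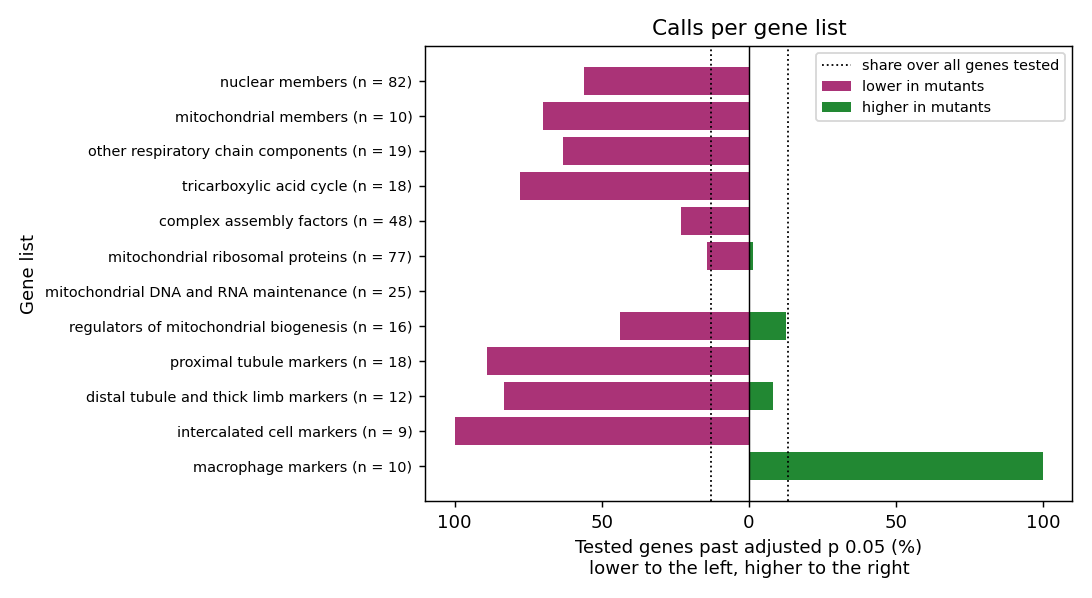
Share of tested genes in each list that fell (left) or rose (right) in mutants at an adjusted p under 0.05, in percent, with the share over all tested genes as dotted lines (13 and 13.2). Members, tricarboxylic acid cycle genes and tubule markers lie left of the line, macrophage markers right of it, and mitochondrial DNA and RNA maintenance genes have no bar.

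Tubule and intercalated cell markers fell with the members, while macrophage markers rose. Over all tested genes 13% fell and 13.2% rose. Of 18 proximal tubule markers 16 fell and 0 rose (median -1.84), with summed levels of 3619 to 4004 in controls and 938 to 1220 in mutants and no marker at 0. Of 12 distal tubule and thick limb markers 10 fell and 1 rose (sums 629 to 792 against 284 to 382), and all 9 intercalated cell markers fell (151 to 164 against 55.6 to 68.2). All 10 macrophage markers rose (58.2 to 71.8 against 212 to 246). Of 8 endothelial markers 4 fell, of 8 stromal markers 3, of 7 erythroid markers 2 and of 8 nephron progenitor markers 1, with 1 progenitor marker rising. Of 13 muscle markers 8 were tested and 4 rose. Sums over all 13 were 4.11 to 4.86 in controls and 8.39 to 12.5 in mutants. The muscle isoform Cox7a1 fell, and its relation to muscle content was not tested. The sums of the 3 tubule and intercalated lists were separated by genotype in the same direction as the sums of the members, and their part in the fall of the members was not tested.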

How the data were processed

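RNA-seq of 8 kidney libraries was analysed from 1 table that the authors deposited, which gives RPKM for 35976 gene symbols beside a gene length, per the file headers. STAR, featureCounts and mm10 are named in the submitters' processing notes; their settings for annotation, strand and multi-mapping reads are not stated, which leaves near-identical copies (the Atp5g genes and their pseudogenes, mitochondrial genes) and overlapping genes uncertain. RPKM times length came out whole, within 0.01 of a read, for 100.0% of 179720 nonzero values, which gave reads and library totals, of which 96.7% to 97.1% lay in listed genes.

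Library factors were trimmed means of M-values (trims of 0.3 and 0.05). Values were fitted with limma 3.58.1 (R 4.3.3, trend and robust options) on genotype and sex over all 8 libraries, or on the 4 group means for effects within a sex and their difference. The pseudocount of 0.1 understates changes of genes near 0, and Benjamini-Hochberg adjustment ran over 18156 genes. The script was tested on simulated data. Isoform shares were compared with exact permutation tests (scipy 1.17.1). Libraries of a group differed beyond counting error, with a chi-square over its degrees of freedom of 22.6 to 51.2, and none were merged.

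Members, lists and tests were chosen with earlier results of these data known. Named genes were all mitochondrial members, the 3 lowest p-values and the 3 largest changes of the nuclear members in each complex, the isoforms and counterparts, the Sdh genes, the core subunits of complex I, the 3 lowest p-values of each related list, and each biogenesis regulator that passed; 2 genes that this rule names are not reported here. Alternatives changed the pseudocount, filter, scaling, model, test and libraries. Leaving out the 3 libraries highest in adipose markers was chosen after seeing the data; Fabp4, which endothelial cells also express, was kept out of that sum. Promoters and nuclear positions came from RefSeq (GRCm38.p6), with all 86 nuclear members matched, and 50-base windows from GENCODE transcripts of GRCm38.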

Additional observations from a re-analysis of the deposited data

Results flagged for a closer look

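In 5 of 146 groups of 4 libraries 1 library stood far from the other 3 (its gap to the nearest over the range was above Dixon's limit). About 1 group in 20 is expected to do so by chance, or 7.3 groups here. In the mutants, Sdhd was highest in female mutant 1 with a gap of 0.858 of the range, although the 4 mutant values spanned only 211 to 223 scaled RPKM. Cox7a2 and Ndufa4 were both lowest in male mutant 2, with gaps of 0.929 and 0.926. In the controls, Cox8b was highest in male control 1 (0.901), the control library with the most adipose marker RNA, and Myc was lowest in female control 1 (0.836).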

How the results depend on the processing

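The median change of the members stayed negative in all 22 alternatives, and the number that fell ranged from 40 to 71 as each library was left out in turn (nuclear 34 to 63, mitochondrial 6 to 8). In the replicate 2 libraries alone 33 members fell and 1 rose (nuclear 26; complexes I, II and IV 15, 1 and 5; related lists 28), and in the replicate 1 libraries alone 3 mitochondrial (COX2 and COX3 among them) and 5 complex V members fell. Without the 3 libraries with most adipose marker RNA, an alternative chosen after seeing the data that leaves 5 libraries, 30 fell (nuclear 24; complexes I, II, IV and V 16, 1, 3 and 6, the last with a median of -0.25; related lists 24), and with a replicate block added 24 (nuclear 22, mitochondrial 2; complexes I, II, IV and V 12, 1, 3 and 3; related lists 20 lower and 3 higher).

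Replicate number went with depth, but deviations of same-numbered libraries correlated above 0.1 in only 4 of 6 pairs of groups (-0.0027 to 0.379), and the labels name no shared batch, so the replicate block is an alternative: 71 members fell with it, all 53 among them, 14 of them in complex IV, 38 within females and 73 within males. As each library was left out in turn, calls ranged from 3 to 26 within females, 5 to 53 within males and 5 to 11 in complex IV. Changes reversed in ATP6, Cox6b2 and Cox8b. ATP6, with values near 0, ranged from -0.49 to 0.012 as libraries were left out (above 0 without female control 2 or female mutant 1). Cox6b2, with a change near 0, ranged from -0.063 to 0.094 (below 0 without female control 2, male control 2, female mutant 1 or male mutant 1), with -0.013 in the deep libraries. Cox8b reversed in the deep libraries (-1.04) and by limma-voom (-0.20). The cause was not tested.

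Low read numbers limit Cox6a2 and the other members with too few reads to be tested. The 4 libraries a genotype, 2 a sex, limit every interval, and the kidney-wide RNA cannot show which cells carry a change.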
